A study of Mus musculus with 59 samples.

Results

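The mitochondrially encoded respiratory chain genes described here are 10 of the 18088 genes in an RNA-seq table of mouse prefrontal cortex. They were taken by name, as the rows whose gene identifiers map to mt-Nd1, mt-Nd2, mt-Nd4, mt-Nd5, mt-Nd6, mt-Cytb, mt-Co1, mt-Co2, mt-Co3 and mt-Atp6, and all 10 passed the filter on low values. The mice were C57BL/6J animals analysed on postnatal day 25. They were heterozygous for Ash1l, which encodes a histone methyltransferase (HT), or wild type (WT), and received fluoxetine, lithium or vehicle through maternal milk from postnatal day 3 to 24. With both sexes this gave 12 groups of 5 libraries, except 4 for HT lithium females, and 59 libraries in all. All groups share the strain, and pups received the assigned treatment by nursing. The labels name no dose, dam or litter. The p-values below therefore measure the spread between these libraries, which may not be independent animals of separate litters. The library kit selects polyadenylated RNA of the whole dissected tissue, so fewer cells of a type and less RNA per cell cannot be told apart.

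Ash1l was read first as a check of the labels. It had 3641 to 4382 normalised counts in the 29 HT libraries, with a median of 4021, against 3557 to 6218 in the 30 WT libraries, with a median of 5030. Its log2 fold change was -0.31 ± 0.02 (SE; limma, adjusted p = 6.49e-15). The lowest WT value belonged to the library labelled WT vehicle female replicate 3, which lay below every HT library, while the other 29 WT libraries had at least 4703. That library also held the highest summed counts of the oligodendrocyte, endothelium and choroid plexus marker lists of all 59, and the lowest of the neuron list. A second library, WT vehicle male replicate 2, had the lowest mean level of nuclear-encoded respiratory chain subunits and stood highest for several members below. Both libraries stand apart from the others, and the results that they move most are given with and without them.

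Mitochondria carry a small circular genome of their own. Both of its strands are transcribed into long RNAs, which are cut into messenger, ribosomal and transfer RNAs. Short poly(A) tails are added to most of the messenger RNAs, but not to every product. Its protein-coding genes specify core subunits of complexes I, III and IV and of the ATP synthase, complex V, while all subunits of complex II and most subunits of the other complexes are encoded in the nucleus. In neurons these complexes supply most of the ATP used for ion pumping and synaptic transmission. Pieces of mitochondrial DNA have also been inserted into nuclear chromosomes, where they can remain nearly identical to the gene they came from.

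Of the 10 members, 5 belong to complex I, which oxidises NADH, 1 to complex III, 3 to complex IV, which reduces oxygen, and 1 to complex V. Their positions are those of GENCODE M21 on GRCm38, where mt-Nd6 lies on the minus strand of chrM and the other members on the plus strand. In the plus direction they are mt-Nd1 (chrM:2751-3707), mt-Nd2 (chrM:3914-4951), mt-Co1 (chrM:5328-6872), mt-Co2 (chrM:7013-7696), mt-Atp6 (chrM:7927-8607), mt-Co3 (chrM:8607-9390), mt-Nd4 (chrM:10167-11544), mt-Nd5 (chrM:11742-13565), mt-Nd6 (chrM:13552-14070) and mt-Cytb (chrM:14145-15288). The last 14 bases of mt-Nd5 overlap mt-Nd6 on the opposite strand. The kit marks strand, but the strand setting used in quantification is not given in the sources used here, so reads of that overlap cannot be placed with certainty. On the same strand mt-Atp6 shares 43 bases with mt-Atp8, and mt-Nd4 shares 7 with mt-Nd4l.

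A block of chromosome 1 repeats a run of the mitochondrial genome, and 5 members have an annotated copy in it. The block is chr1:24611535-24616197 on the minus strand of GRCm38, 4663 bases with 7 annotated genes, all of which have rows in the table. Over their aligned length Gm28661 matched mt-Co2 at all 681 bases, Gm10925 matched mt-Atp6 at all 678, Gm28437 matched mt-Co3 at all 783 and Gm28439 matched the first 876 bases of mt-Nd4. Gm29216 matched the last part of mt-Co1 at 486 of 492 bases. The stretches below are shown because they hold the annotated ends of the copies, or their differences from the member. For mt-Co2, mt-Atp6 and mt-Co3 the annotated sequences of member and copy differ only at that end, where the copy is shorter. The copies of mt-Co1 and mt-Nd4 match a part of the gene. The sequence of the block beyond the annotated ends was not compared, so a read is not shown to tell member and copy apart there. Each line is 60 bases of the member, or the matching bases of the copy, 5′ to 3′ in the direction of transcription. Capitals mark bases of the member beyond the annotated end of the copy or, for mt-Co1, bases that differ.
mt-Co2, last 60 bases, chrM:7637-7696, plus strand: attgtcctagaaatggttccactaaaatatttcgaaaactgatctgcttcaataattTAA
Gm28661, chr1:24614885-24614941, minus strand: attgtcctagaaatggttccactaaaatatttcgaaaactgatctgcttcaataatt
mt-Atp6, last 60 bases, chrM:8548-8607, plus strand: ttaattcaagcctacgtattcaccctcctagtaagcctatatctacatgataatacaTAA
Gm10925, chr1:24613974-24614030, minus strand: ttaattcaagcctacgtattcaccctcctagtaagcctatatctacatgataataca
mt-Co3, last 60 bases, chrM:9331-9390, plus strand: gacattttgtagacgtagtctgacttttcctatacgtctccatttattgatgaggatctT
Gm28437, chr1:24613189-24613247, minus strand: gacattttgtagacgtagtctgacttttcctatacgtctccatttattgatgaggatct
mt-Co1, bases 1054 to 1113, chrM:6381-6440, plus strand: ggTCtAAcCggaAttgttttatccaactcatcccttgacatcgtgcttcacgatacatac
Gm29216, chr1:24616138-24616197, minus strand: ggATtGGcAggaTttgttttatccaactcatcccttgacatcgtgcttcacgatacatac
mt-Nd4, bases 827 to 886, chrM:10993-11052, plus strand: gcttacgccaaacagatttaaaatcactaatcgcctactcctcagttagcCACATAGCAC
Gm28439, chr1:24611535-24611584, minus strand: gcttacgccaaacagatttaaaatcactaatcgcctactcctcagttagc
As annotated, the mt-Co2 and mt-Atp6 copies stop just before the TAA that ends the member, and the mt-Co3 copy stops before the final T. Counted from 1 at the 5′ end of mt-Co1, the differences were T1056A, C1057T, A1059G, A1060G, C1062A and A1066T, all within the first 13 bases of the copy. Of the 31-base words in each member, 99.5% were shared with the copy for mt-Co2 and mt-Atp6 and 99.9% for mt-Co3, against 62.8% for mt-Nd4 and 29.6% for mt-Co1. Copies on chromosome 2, Gm13341 of mt-Co2 and Gm13340 of mt-Co1, shared 47.1% and 45.2% of the words and were not summed. The annotation holds further copies that have no row in the table, also of members without a chromosome 1 copy. Among them are Gm4076 of mt-Nd5 (230 shared words), Gm13339 of mt-Nd2 (136), Gm11410 of mt-Cytb (73) and Gm11408 of mt-Nd6 (36). The reads of mt-Co2, mt-Atp6 and mt-Co3 and of their copies therefore carry almost the same sequence. The counts of these members alone are uncertain for that reason, and comparisons are also given with the member and its copy summed.

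The division of counts between member and copy varied widely from library to library. The median share of the pair assigned to the member was 34.3% for mt-Co2, with a range of 7.32% in HT fluoxetine female replicate 4 to 55.7% in HT vehicle male replicate 2. For mt-Atp6 the median was 13.3%, from 2.35% in HT vehicle male replicate 5 to 31.1% in HT fluoxetine male replicate 3. For mt-Co3 it was 14.8%, from 2.81% in WT lithium male replicate 5 to 33.7% in WT lithium male replicate 3. Both extremes of mt-Co3 came from a single group, WT lithium males. mt-Co1 kept a median of 96.0% (lowest 91.8%, in WT fluoxetine female replicate 2). Gm28439 was at 0 in 58 of the 59 libraries and had 8179 reads, 10115 normalised counts, in WT vehicle male replicate 2.

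Summing member and copy gave less scatter than the member alone. Across the 59 libraries the coefficient of variation of the normalised count was 44.2% for mt-Co2 alone and 23.7% with its copy, 57.5% and 17.6% for mt-Atp6, and 51.4% and 15.9% for mt-Co3. It was 17.1% for mt-Co1 alone and 16.3% with its copy. The other members lay between 13.8% for mt-Cytb and 19.9% for mt-Nd1, apart from 29.5% for mt-Nd6. In WT lithium male replicates 3 and 5, for example, mt-Co3 alone had 69100 and 6960 normalised counts, while the pair summed to 205334 and 247633. The copies alone had coefficients of variation of 33.1% for Gm28661, 16.2% for Gm10925 and 17.9% for Gm28437. For mt-Atp6 the sum thus varied no less than its copy. The Pearson correlation between log2 levels of member and copy was -0.31 for mt-Co2, 0.23 for mt-Atp6 and -0.23 for mt-Co3.

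**Figure D1:**
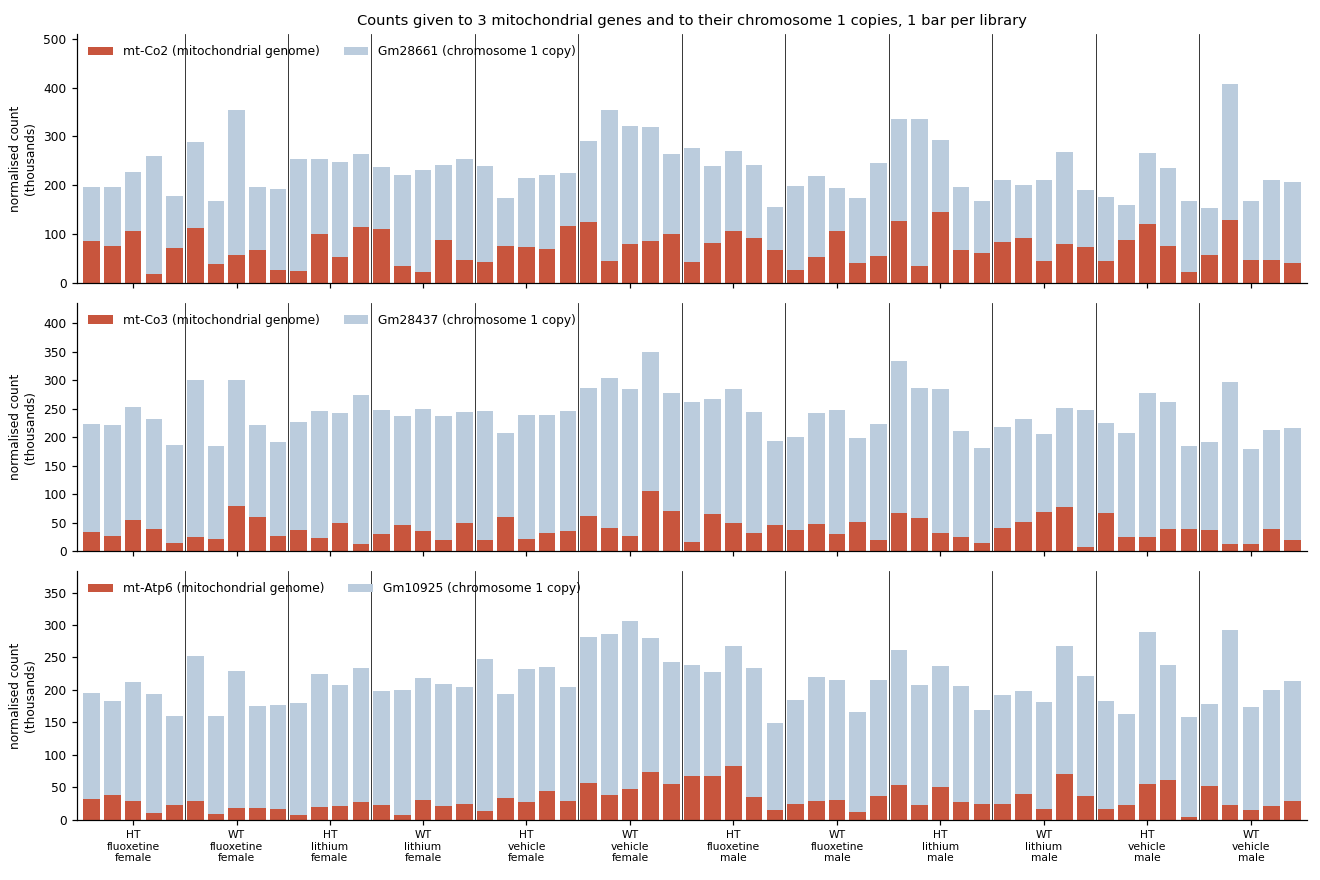
Normalised counts assigned to mt-Co2, mt-Atp6 and mt-Co3 (red) and to their chromosome 1 copies (grey-blue), stacked for each of the 59 libraries in order of group. The boundary between member and copy moves from library to library, and the summed height varies less, with coefficients of variation of 15.9% to 23.7%.

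The members took between 4.14% of all reads, in HT fluoxetine male replicate 5, and 8.64%, in WT vehicle male replicate 2, with a mean of 5.94% over the 59 libraries. With the copies included the share was 5.51% to 11.4%. Library totals were 24470332 to 36323070 reads. Apart from mt-Nd6, every member averaged at least 31835 normalised counts, so counting error was small beside the differences between libraries. Per kilobase of gene, mt-Co1, the catalytic subunit of complex IV, was highest at 479395 normalised counts on average. mt-Cytb followed at 204714, the only member of complex III, which passes electrons to cytochrome c. Next came the complex I subunits mt-Nd1 at 178677 and mt-Nd4 at 146129, then mt-Nd2 at 106924, mt-Co2 at 104969 and mt-Nd5 at 74933. mt-Co3 had 49857 and mt-Atp6 46748 per kilobase. mt-Nd6, the complex I subunit read from the other strand, was lowest at 3127 in these poly(A)-selected libraries.

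Neighbours in that order differed in how often the order held. mt-Co1 was above mt-Cytb in 59 of 59 libraries and mt-Nd1 above mt-Nd4 in 59 of 59, but mt-Nd2 was above mt-Co2 in 27 and mt-Co3 above mt-Atp6 in 30. With the copies summed, mt-Co2 stood at 343485 normalised counts per kilobase, mt-Atp6 at 315508 and mt-Co3 at 308328, directly below mt-Co1 at 499344 and above mt-Cytb. mt-Co2 then exceeded mt-Atp6 in 42 of 59 libraries and mt-Atp6 exceeded mt-Co3 in 33. On the same scale the other genes of the mitochondrial genome that the table lists averaged 104001 for mt-Atp8, 90000 for mt-Rnr1, 71164 for mt-Rnr2, 44578 for mt-Nd4l and 6661 for mt-Nd3. The kit selects poly(A), so the levels of mt-Nd6 and of the ribosomal RNAs mt-Rnr1 and mt-Rnr2 are those that the selection kept. mt-Nd3 and mt-Nd4l have copies in the same chromosome 1 block.

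Levels in the 12 groups are given next as normalised counts, mean ± SD over the 5 libraries of a group (4 for HT lithium females), for each member alone. mt-Nd1 is a subunit of the membrane arm of complex I. Normalised counts of mt-Nd1 in females averaged 156249 ± 18032 in HT fluoxetine, 168846 ± 40556 in WT fluoxetine, 174938 ± 15878 in HT lithium, 164837 ± 12165 in WT lithium, 164429 ± 12730 in HT vehicle and 215488 ± 16316 in WT vehicle mice. mt-Nd1 in males averaged 174531 ± 33888 in HT fluoxetine, 159084 ± 11163 in WT fluoxetine, 181284 ± 40360 in HT lithium, 161572 ± 20501 in WT lithium, 154690 ± 32637 in HT vehicle and 176767 ± 77334 in WT vehicle mice. WT vehicle females were highest and HT vehicle males lowest. Among WT vehicle males replicate 2 stood at 313429, against 125807 to 159423 in the other 4 libraries. Normalised counts of mt-Nd2 in females averaged 104301 ± 10264 in HT fluoxetine, 107823 ± 25763 in WT fluoxetine, 119073 ± 10913 in HT lithium, 111300 ± 6487 in WT lithium, 110912 ± 12282 in HT vehicle and 136596 ± 15582 in WT vehicle mice. mt-Nd2 in males averaged 104584 ± 22317 in HT fluoxetine, 103839 ± 9242 in WT fluoxetine, 115380 ± 24570 in HT lithium, 111108 ± 14007 in WT lithium, 103698 ± 27130 in HT vehicle and 104847 ± 23288 in WT vehicle mice. mt-Nd2, also of the membrane arm, had the same highest and lowest groups. Normalised counts of mt-Nd4 in females averaged 188054 ± 20815 in HT fluoxetine, 189784 ± 39597 in WT fluoxetine, 210872 ± 17339 in HT lithium, 203242 ± 5316 in WT lithium, 207594 ± 13865 in HT vehicle and 234731 ± 40124 in WT vehicle mice. mt-Nd4 in males averaged 189431 ± 34602 in HT fluoxetine, 186583 ± 11846 in WT fluoxetine, 204033 ± 32470 in HT lithium, 196290 ± 25063 in WT lithium, 189276 ± 49135 in HT vehicle and 218401 ± 87864 in WT vehicle mice. mt-Nd4, a further subunit of that arm, was again highest in WT vehicle females, and its lowest group mean was in WT fluoxetine males.

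mt-Nd5 encodes another subunit of the complex I membrane arm. Normalised counts of mt-Nd5 in females averaged 126671 ± 11923 in HT fluoxetine, 139888 ± 28254 in WT fluoxetine, 139314 ± 12970 in HT lithium, 135127 ± 4297 in WT lithium, 132875 ± 9757 in HT vehicle and 153591 ± 38446 in WT vehicle mice. mt-Nd5 in males averaged 137025 ± 23452 in HT fluoxetine, 127888 ± 9370 in WT fluoxetine, 140688 ± 24198 in HT lithium, 135525 ± 20486 in WT lithium, 127810 ± 32655 in HT vehicle and 144261 ± 57933 in WT vehicle mice. In mt-Nd5 the WT vehicle females ran from 93367 in the library labelled replicate 3, the lowest of all 59 libraries, to 191755 in replicate 2. mt-Nd6 lies opposite the end of mt-Nd5. Normalised counts of mt-Nd6 in females averaged 1412 ± 377 in HT fluoxetine, 1694 ± 485 in WT fluoxetine, 1832 ± 271 in HT lithium, 1547 ± 196 in WT lithium, 1313 ± 387 in HT vehicle and 2044 ± 846 in WT vehicle mice. mt-Nd6 in males averaged 1612 ± 392 in HT fluoxetine, 1405 ± 380 in WT fluoxetine, 1690 ± 383 in HT lithium, 1815 ± 374 in WT lithium, 1436 ± 509 in HT vehicle and 1719 ± 726 in WT vehicle mice. The same library labelled replicate 3 had the highest mt-Nd6 value of all 59, 3511 normalised counts, and the other 4 WT vehicle females had 1331 to 1867. The ratio of mt-Nd6 to mt-Nd5 counts was 3.76% in that library, against a median of 1.17% over all libraries and a next highest of 1.97%.

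mt-Cytb had the narrowest spread of the members. Normalised counts of mt-Cytb in females averaged 213272 ± 18283 in HT fluoxetine, 230948 ± 40257 in WT fluoxetine, 242373 ± 20047 in HT lithium, 233614 ± 6904 in WT lithium, 230062 ± 19150 in HT vehicle and 279078 ± 17830 in WT vehicle mice. mt-Cytb in males averaged 229622 ± 33582 in HT fluoxetine, 219442 ± 21447 in WT fluoxetine, 248957 ± 44154 in HT lithium, 230567 ± 21799 in WT lithium, 223645 ± 41198 in HT vehicle and 230365 ± 50460 in WT vehicle mice. WT vehicle females lay highest, at 252284 to 297187 per library, and HT fluoxetine females lowest. Normalised counts of mt-Co1 in females averaged 646734 ± 62254 in HT fluoxetine, 713459 ± 156539 in WT fluoxetine, 765959 ± 72055 in HT lithium, 748166 ± 32267 in WT lithium, 735868 ± 56531 in HT vehicle and 883365 ± 107211 in WT vehicle mice. mt-Co1 in males averaged 715921 ± 118497 in HT fluoxetine, 688558 ± 69294 in WT fluoxetine, 810916 ± 150253 in HT lithium, 707275 ± 85540 in WT lithium, 717194 ± 138449 in HT vehicle and 759625 ± 256776 in WT vehicle mice. The highest single library for mt-Co1 was WT vehicle male replicate 2 at 1209152, against 592882 to 719714 in the other 4 libraries of its group.

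The members with near-identical copies had much wider groups. mt-Co2 carries the copper centre that receives electrons from cytochrome c. Normalised counts of mt-Co2 in females averaged 71939 ± 32613 in HT fluoxetine, 60833 ± 32614 in WT fluoxetine, 73364 ± 42241 in HT lithium, 60704 ± 37611 in WT lithium, 75514 ± 26297 in HT vehicle and 87177 ± 28581 in WT vehicle mice. mt-Co2 in males averaged 78314 ± 24237 in HT fluoxetine, 56465 ± 30494 in WT fluoxetine, 87560 ± 46717 in HT lithium, 75077 ± 18549 in WT lithium, 70167 ± 38409 in HT vehicle and 64787 ± 36831 in WT vehicle mice. The highest mean of mt-Co2 alone was in HT lithium males, just above WT vehicle females, and the SDs were a large part of every mean. mt-Co3 is the third core subunit of complex IV. Normalised counts of mt-Co3 in females averaged 33410 ± 15004 in HT fluoxetine, 42526 ± 25704 in WT fluoxetine, 30054 ± 16155 in HT lithium, 35885 ± 12122 in WT lithium, 33835 ± 16208 in HT vehicle and 60902 ± 30794 in WT vehicle mice. mt-Co3 in males averaged 41925 ± 18212 in HT fluoxetine, 37098 ± 12790 in WT fluoxetine, 39305 ± 22401 in HT lithium, 49100 ± 27705 in WT lithium, 38879 ± 16844 in HT vehicle and 24328 ± 13187 in WT vehicle mice. mt-Atp6 forms part of the proton path of the ATP synthase. Normalised counts of mt-Atp6 in females averaged 26431 ± 10526 in HT fluoxetine, 17830 ± 7294 in WT fluoxetine, 18524 ± 7935 in HT lithium, 20834 ± 8505 in WT lithium, 28965 ± 11215 in HT vehicle and 54131 ± 13116 in WT vehicle mice. mt-Atp6 in males averaged 53348 ± 28046 in HT fluoxetine, 26700 ± 9144 in WT fluoxetine, 35573 ± 14793 in HT lithium, 37428 ± 20489 in WT lithium, 32087 ± 25081 in HT vehicle and 27510 ± 14327 in WT vehicle mice. WT vehicle females were highest and WT fluoxetine females lowest for mt-Atp6 alone.

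With each copy added, the SDs were a smaller part of the group means. Normalised counts of mt-Co2 with its copy in females averaged 211529 ± 32043 in HT fluoxetine, 239855 ± 78923 in WT fluoxetine, 254660 ± 6285 in HT lithium, 236709 ± 12232 in WT lithium, 215291 ± 24918 in HT vehicle and 309979 ± 34817 in WT vehicle mice. mt-Co2 with its copy in males averaged 236193 ± 47929 in HT fluoxetine, 206947 ± 27591 in WT fluoxetine, 265677 ± 78799 in HT lithium, 215850 ± 30016 in WT lithium, 201169 ± 47279 in HT vehicle and 229411 ± 102229 in WT vehicle mice. WT vehicle females were then highest for mt-Co2 as well. Normalised counts of mt-Co3 with its copy in females averaged 223636 ± 24257 in HT fluoxetine, 239732 ± 57302 in WT fluoxetine, 247241 ± 19389 in HT lithium, 243165 ± 6354 in WT lithium, 235033 ± 15756 in HT vehicle and 299853 ± 28876 in WT vehicle mice. mt-Co3 with its copy in males averaged 250024 ± 35057 in HT fluoxetine, 222267 ± 22909 in WT fluoxetine, 259883 ± 62029 in HT lithium, 230944 ± 19447 in WT lithium, 230921 ± 37832 in HT vehicle and 219149 ± 46020 in WT vehicle mice. The median SD within a group fell to 10.6% of the mean for mt-Co3 with its copy, against 49.2% for mt-Co3 alone. Normalised counts of mt-Atp6 with its copy in females averaged 188953 ± 19060 in HT fluoxetine, 198766 ± 39737 in WT fluoxetine, 211090 ± 23806 in HT lithium, 206116 ± 8057 in WT lithium, 222753 ± 22715 in HT vehicle and 279476 ± 23248 in WT vehicle mice. mt-Atp6 with its copy in males averaged 223353 ± 44045 in HT fluoxetine, 200416 ± 23820 in WT fluoxetine, 216195 ± 34945 in HT lithium, 212191 ± 34467 in WT lithium, 206590 ± 55882 in HT vehicle and 211679 ± 47606 in WT vehicle mice. WT vehicle females thus had the highest group mean for 9 of the 10 members alone and for all 10 with the copies summed. For mt-Nd6 that mean includes the library labelled WT vehicle female replicate 3 at 3511 normalised counts, with the next library of its group at 1867. The ranking of groups without that library is not given here.

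**Figure D2:**
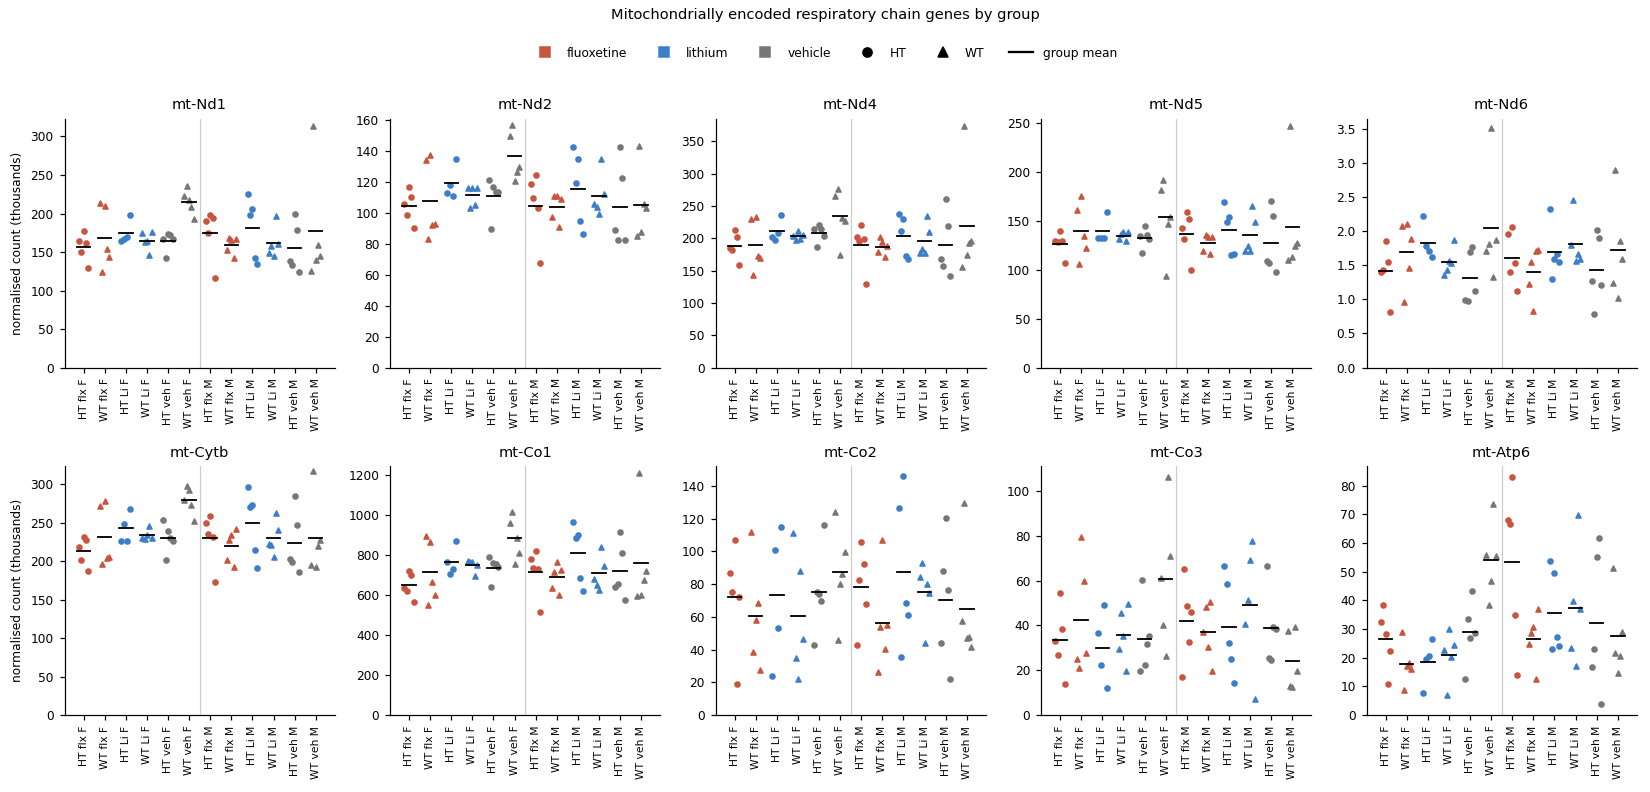
Normalised count of each of the 10 members in each of the 59 libraries (points) with the group mean (line), by group. WT vehicle females have the highest mean for 9 of the 10 members, and WT vehicle male replicate 2 lies far above its group for mt-Nd1, mt-Nd4, mt-Nd5 and mt-Co1. For mt-Nd6 the mean of WT vehicle females includes the library labelled replicate 3, at 3511.

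The members rose and fell together between libraries, as a description over 59 points that share library preparation and depth. Among mt-Nd1, mt-Nd2, mt-Nd4, mt-Nd5, mt-Cytb and mt-Co1 the 15 pairwise Pearson correlations of log2 levels were 0.80 to 0.94, and 0.82 to 0.97 within groups. mt-Nd6 correlated with these 6 at 0.45 to 0.61. mt-Co3 alone correlated with them at 0.03 to 0.12, mt-Co2 at 0.38 to 0.43 and mt-Atp6 at 0.41 to 0.49. Summed with their copies, the values were 0.76 to 0.92 for mt-Co3, 0.77 to 0.93 for mt-Co2 and 0.74 to 0.93 for mt-Atp6. At the median the copy held most of each of these sums, so the summed values describe the copy rows in large part.

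**Figure D3:**
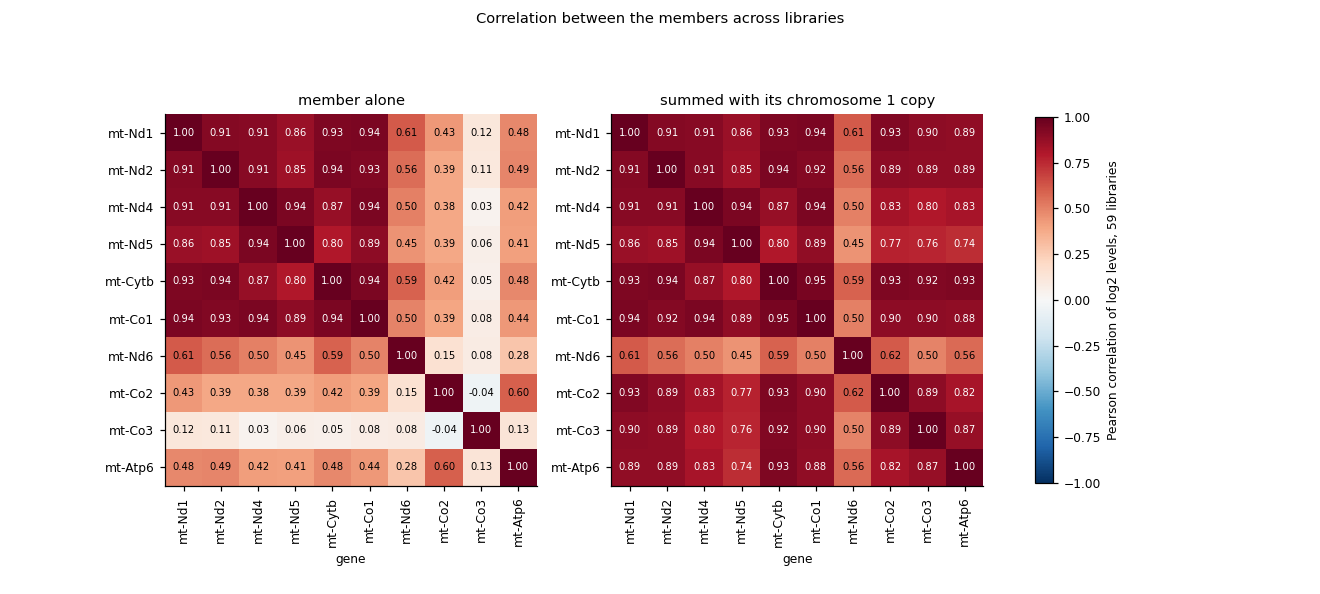
Pearson correlations of log2 normalised counts between members across the 59 libraries, for the members alone and with the chromosome 1 copies summed. Each cell prints its correlation; against mt-Nd1, mt-Nd2, mt-Nd4, mt-Nd5, mt-Cytb and mt-Co1, the members mt-Co2, mt-Co3 and mt-Atp6 have 0.03 to 0.49 alone and 0.74 to 0.93 summed.

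The first comparison asked whether HT and WT mice differ, averaged over drugs and sexes. No member passed (limma with Benjamini-Hochberg adjustment over all 17875 genes tested, 0 of 10 called and 0 of 10 at an unadjusted p under 0.05), where 0.358% of all genes were called. mt-Co1 had 514817 to 964849 normalised counts in 29 HT libraries, with a median of 729144, against 547068 to 1209152 in 30 WT libraries, with a median of 736075. The ranges overlapped almost wholly, and its log2 fold change was -0.03 ± 0.06 (SE). The 10 log2 fold changes ran from -0.13 for mt-Nd6 to 0.16 for mt-Co2, with a median of -0.04, and 8 were negative. Adding the copies made all 10 negative, mt-Co2 included at -0.04.

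Fluoxetine, a serotonin reuptake inhibitor, was then compared with vehicle over genotypes and sexes. No member was called by limma in that average, where 13.5% of all genes were, and 1 of 10 had an unadjusted p under 0.05. That member was mt-Co1, with 514817 to 892780 normalised counts in the 20 fluoxetine libraries, a median of 706880, against 572259 to 1209152 in the 20 vehicle libraries, a median of 751912. Its log2 fold change was -0.15 ± 0.07 (SE; limma, adjusted p = 0.151). mt-Nd4 had -0.15 ± 0.08 (adjusted p = 0.199, limma) and mt-Cytb -0.10 ± 0.06 (adjusted p = 0.263, limma). The median over the 10 members was -0.10, and over all genes 0.0072. On summed counts the lowest adjusted p was 0.0995, for mt-Atp6 at -0.17 ± 0.07 (SE, limma).

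Lithium against vehicle gave smaller values. No member was called by limma in that average, where 13.1% of all genes were, and none had an unadjusted p under 0.05. mt-Co1 had 619739 to 964849 normalised counts in the 19 lithium libraries, a median of 749025, beside the vehicle median of 751912, and a log2 fold change of -0.01 ± 0.07 (SE). The median of the members was -0.02, from -0.29 for mt-Atp6 to 0.16 for mt-Nd6, and 0.02 without both libraries that stand apart. Both drug averages use the same 20 vehicle libraries. Females against males gave no call by limma either, where 0.117% of all genes were called, with a member median of 0.05 and mt-Nd2 highest at 0.11 ± 0.06 (SE).

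Over these 4 averages, edgeR and DESeq2 on the recovered reads also called 0 of the 40 member tests. Unadjusted p-values under 0.05 numbered 1 of 40 by limma and 3 of 40 by each of the other tools. The standard errors of the log2 fold changes were 0.05 to 0.13 for the 7 members other than mt-Co2, mt-Co3 and mt-Atp6, and 0.20 to 0.27 for those 3 alone. A p that misses the threshold does not show that the levels were equal.

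**Figure D4:**
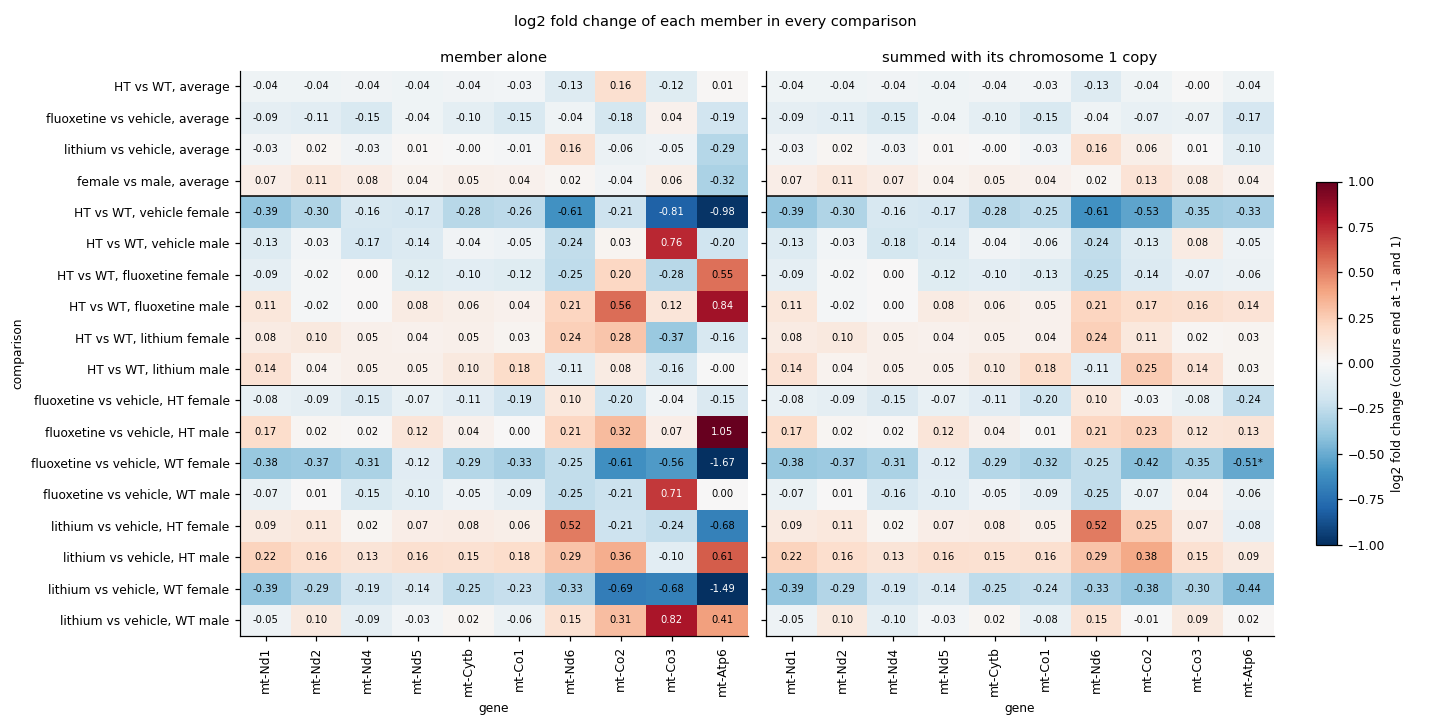
Log2 fold change of each member (columns) in the 4 averages and 14 strata comparisons (rows), printed in each cell and coloured from blue (negative) to red (positive), for the member alone (left) and summed with its chromosome 1 copy (right); an asterisk marks an adjusted p under 0.05 by limma. The 3 rows against WT vehicle females are blue for every member, and the single asterisk stands at mt-Atp6 summed with its copy in fluoxetine against vehicle in WT females, at -0.51.

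Within single strata, 140 member tests were made in 14 comparisons, and limma called 0 of them, with 13 at an unadjusted p under 0.05. edgeR called 0 with 15 under 0.05, and DESeq2 called 2 with 17. The shares of all genes called, given next, are those of limma, and the share by DESeq2 was not set beside its 2 calls. HT against WT gave no member call in vehicle females, where 6.2% of all genes were called, nor in vehicle males (0.00559%), fluoxetine females (1.95%), fluoxetine males (0.386%), lithium females (0.00559%) or lithium males (0.00559%). Fluoxetine against vehicle gave none in HT females (0.0% of all genes called), HT males (5.74%), WT females (2.85%) or WT males (0.85%). Lithium against vehicle gave none in HT females (2.98%), HT males (0.252%), WT females (2.45%) or WT males (0.476%). The member medians of log2 fold change were between -0.35 and 0.17. The highest was lithium in HT males, where mt-Nd1 had 0.22, mt-Cytb 0.15 and mt-Co1 0.18 and 9 of 10 members were positive. Every one of the 13 unadjusted p-values under 0.05 fell in the 3 comparisons that have the WT vehicle females as reference. The share of all genes under an unadjusted p of 0.05 was not set beside this count, so it does not set the members apart from other genes.

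These 3 comparisons share the same 5 WT vehicle females, so their values are set side by side and not counted as separate evidence. All 10 members had negative log2 fold changes in each. The median was -0.29 in HT against WT vehicle females, -0.35 in fluoxetine against vehicle in WT females and -0.31 in lithium against vehicle in WT females, and -0.32, -0.33 and -0.29 with the copies summed. The medians without both libraries that stand apart were -0.34, -0.40 and -0.32 for the members alone, in the same order of comparisons. The median over all genes was 0.0029, 0.013 and 0.0083 in the same order of comparisons.

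mt-Nd1 had 167340, 142217, 172826, 172742 and 167018 normalised counts in HT vehicle females. It had 213805, 123568, 209489, 153326 and 144044 in WT fluoxetine females, and 174987, 162465, 164926, 145864 and 175943 in WT lithium females. The WT vehicle females had 223150, 236285, 217139, 208097 and 192768. All 5 of these lay above every HT vehicle and every WT lithium female, and overlapped the WT fluoxetine females, of which replicates 1 and 3 were high. The log2 fold changes were -0.39 ± 0.16 for HT, -0.38 ± 0.16 for fluoxetine and -0.39 ± 0.16 for lithium (SE; limma, adjusted p = 0.130, 0.200 and 0.156).

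mt-Atp6 alone gave the lowest adjusted p of any member. It had 29021, 8638, 17159, 18097 and 16236 normalised counts in WT fluoxetine females, against 55957, 38541, 46841, 73793 and 55522 in WT vehicle females. The groups did not overlap, and the log2 fold change was -1.67 ± 0.53 (SE; limma, adjusted p = 0.0692). WT lithium females had 22562, 7012, 29946, 20343 and 24305, which also lay below all WT vehicle females, with -1.49 ± 0.53 (SE; limma, adjusted p = 0.0964). DESeq2 called both, with adjusted p = 0.0101 for fluoxetine and 0.0313 for lithium, and edgeR neither, with adjusted p = 0.0615 and 0.101. The share of all genes that DESeq2 called in these comparisons is not given here. Fitted on the compared groups alone, limma called the fluoxetine difference (adjusted p = 0.0115), and over the settings tried for it for the member alone the adjusted p was 0.0101 to 0.0984.

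Adding Gm10925 changed the size of that difference by more than 1.5 times. mt-Atp6 with its copy had 251888, 159997, 229780, 175837 and 176328 normalised counts in WT fluoxetine females, against 281970, 286353, 306610, 280009 and 242438 in WT vehicle females. Fluoxetine replicate 1 then lay within the range of the vehicle libraries. The log2 fold change was -0.51 ± 0.14 (SE; limma, adjusted p = 0.0338), the only member call among the 140 strata tests of summed counts, in a comparison where 2.85% of 17869 genes were called. Without both libraries that stand apart it was -0.48, with an adjusted p of 0.0597 by limma. The call was also lost in 7 of the 59 fits that leave out 1 library.

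How far the groups stood apart depended on the library labelled WT vehicle female replicate 3. In HT against WT vehicle females, mt-Nd1 was the single member without overlap, and without that library there were 5: mt-Nd1, mt-Nd2, mt-Nd4, mt-Nd5 and mt-Co1. In lithium against vehicle in WT females there were 4 members without overlap, mt-Nd1, mt-Nd2, mt-Cytb and mt-Atp6, and 7 without the library. With the copies summed the counts were 3 with all libraries and 7 without it for HT, and 7 and 9 for lithium. In fluoxetine against vehicle it was 1 alone and 0 summed, with or without the library. Of all 17875 genes tested, 1.54% were lower in HT without overlap, 2.6% with fluoxetine and 3.22% with lithium, and 2.98%, 4.31% and 4.65% without the library.

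The share of all reads taken by the members and their copies showed the same groups. It was 7.04% to 8.29% in HT vehicle females, with a median of 8.02%, 6.26% to 9.28% in WT fluoxetine females, with a median of 6.97%, and 7.73% to 8.23% in WT lithium females, with a median of 7.94%. In WT vehicle females it was 8.57% to 10.3%, with a median of 9.79%. The highest library of all was WT vehicle male replicate 2 at 11.4%, and the median of its group was 7.30%.

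Marker lists of other cell types were read in the same 3 comparisons. All 8 oligodendrocyte markers had negative log2 fold changes in each, with medians of -0.55 in HT against WT vehicle females, -0.24 for fluoxetine and -0.53 for lithium in WT females. None was called by limma or had an unadjusted p under 0.05 by it, and neither edgeR nor DESeq2 called any, with 12 of 24 tests at an unadjusted p under 0.05 by each. Their summed counts were 66646 to 143753 in HT vehicle females, 74665 to 180887 in WT fluoxetine females and 78887 to 151872 in WT lithium females, against 105195 to 276613 in WT vehicle females. The top of that last range is the library labelled replicate 3. All 8 endothelium markers had negative values too. limma called 1 lower in HT vehicle females, 3 with fluoxetine and 3 with lithium in WT females. The shares of all genes called by limma there were 6.2%, 2.85% and 2.45%. Of the 24 endothelium tests, 16 had an unadjusted p under 0.05 by limma, and edgeR called 8 and DESeq2 13. Summed endothelium counts were 8368 to 10213 in HT vehicle females, 7424 to 8791 in WT fluoxetine females and 7867 to 8670 in WT lithium females, against 9525 to 14010 in WT vehicle females. No marker of either list was at 0 in any library. The 10 neuron markers had no calls by limma, with 4, 1 and 2 at an unadjusted p under 0.05 and medians of -0.04, 0.17 and -0.01 in the same order of comparisons, and DESeq2 called 3 of them in HT against WT vehicle females. Of the 8 microglia markers, 7 were negative in HT vehicle females, 7 with fluoxetine and 8 with lithium, with medians of -0.15, -0.10 and -0.24. Of the 8 astrocyte markers, 4, 6 and 7 were negative, with medians of -0.05, -0.07 and -0.13. limma called none of either list, with 6 microglia and 5 astrocyte tests of 24 each at an unadjusted p under 0.05, while DESeq2 called 1 and 2 and edgeR 0 and 1. Summed microglia counts were 8036 to 9708 in HT vehicle females, 8146 to 9808 in WT fluoxetine females and 7326 to 8328 in WT lithium females, against 7865 to 10535 in WT vehicle females. Summed counts of the striatum list were 6086 to 6817 in HT vehicle females and 6527 to 15996 in WT fluoxetine females. They were 5851 to 18590 in WT lithium females and 5782 to 14272 in WT vehicle females. The medians were 6423, 7044, 6163 and 6187 in the same order of groups. The part of these cell types, and of differences in dissection, in the member differences was not tested.

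Interactions asked whether an effect differed between genotypes or sexes. limma called no member in fluoxetine by genotype (0.0392% of all genes called), fluoxetine by sex (0.425%), lithium by genotype (0.0%), lithium by sex (0.0%) or genotype by sex in vehicle (2.9%). Of these 50 tests 5 had an unadjusted p under 0.05 by limma, 7 by edgeR and 8 by DESeq2, and neither other tool called any. By limma the number was 19 without both libraries that stand apart and 18 with the trend in GC content and length removed, with 0 called in each. With the copies summed it was 6, and 24 without both libraries and 25 with that trend removed, again with 0 called. The share of all genes under that unadjusted threshold was not set beside these counts. The members' signs were 9 of 10 positive for both drugs by genotype, read as HT minus WT, and 10 of 10 negative for both drugs by sex, read as female minus male. Summing the copies gave 10 of 10 positive and 10 of 10 negative. Most members rose and fell together between libraries, so these signs are not 10 separate observations. The share of all genes with each sign was not set beside them. mt-Atp6 in fluoxetine by sex had -1.43 alone and -0.41 summed, and mt-Co3 in fluoxetine by genotype -0.05 alone and 0.18 summed. All 5 contain the WT vehicle females.

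The nuclear-encoded subunits of complexes I to V were taken from a list by name. They are 77 genes of the table, and all 77 were tested. The list places Ndufa4 in complex I and Cox7a2l in complex IV, and the counts per complex follow it. In HT against WT, averaged, 0 were called and 0 had an unadjusted p under 0.05 by limma, edgeR or DESeq2, with a median of 0.01. In fluoxetine against vehicle 11 rose and 0 fell, with a median log2 fold change of 0.06, beside -0.10 for the mitochondrially encoded members. In lithium against vehicle 28 rose and 0 fell, with a median of 0.10, beside -0.02 for the members. The shares of all genes called in either direction were 13.5% and 13.1%, and shares by direction were not set beside these counts. At 11 of 77 the fluoxetine count was near the share of all genes, so it does not set these subunits apart. Females against males gave 0 calls by limma, with 35 at an unadjusted p under 0.05 and a median of 0.06, and DESeq2 called 1. The share of all genes under that unadjusted threshold was not set beside the 35, so they do not set these subunits apart from other genes. The fluoxetine count was 2 with the trend in GC content and length removed and 19 without the library labelled WT vehicle female replicate 3. The lithium count was 14 and 15 under the other scalings, 17 with the compared groups alone and 18 without HT lithium female replicate 3. The endothelium markers moved in both drug averages as well, with 6 of 8 called lower in each, and their part in these counts was not tested.

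In complex I, 6 of 38 nuclear subunits rose with fluoxetine and 13 with lithium. The counts given for each complex stand beside 13.5% of all genes called with fluoxetine and 13.1% with lithium, in either direction. The fluoxetine counts of complexes I, III, IV and V were near or below that share. No test set the count of any complex against these shares. Ndufv1, the flavoprotein that binds NADH, had 3355 normalised counts on average in fluoxetine and 3331 in lithium mice, against 3037 in vehicle mice, with log2 fold changes of 0.14 (adjusted p = 0.00154) and 0.14 (adjusted p = 0.00247, limma). Ndufa9 averaged 2383 with either drug, against 2210 in vehicle mice (0.11 for each). Ndufb10 rose with both drugs, at 0.15 and 0.14. Ndufa8 rose with lithium (0.13; limma, adjusted p = 0.00245). The mitochondrially encoded complex I members had log2 fold changes of -0.15 to -0.04 in the fluoxetine average and -0.03 to 0.16 in the lithium average, and none passed.

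In complex II, which has no mitochondrially encoded subunit, 2 of 4 genes rose with each drug. Sdhd, a membrane anchor, rose with both (0.11 and 0.13), Sdhb with fluoxetine (0.09) and the flavoprotein Sdha with lithium (0.07). In complex III, 1 of 9 rose with fluoxetine and 4 with lithium. Uqcrc1, a core protein, rose with both (0.14 and 0.13), and Cyc1, which encodes cytochrome c1, with lithium (0.13), as did Uqcr10 (0.15). mt-Cytb, the partner of these subunits, had -0.10 with fluoxetine and a value within its SE of 0.06 of zero with lithium.

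In complex IV, 1 of 11 nuclear subunits rose with fluoxetine and 5 with lithium. Cox4i1 averaged 10443 normalised counts in fluoxetine mice, against 9737 in vehicle mice (log2 fold change 0.11; limma, adjusted p = 0.0408). Cox6b1 (0.13), Cox7a2 (0.13) and Cox7b (0.12) rose with lithium. mt-Co1 had -0.15 with fluoxetine and -0.01 with lithium. In complex V, 1 of 15 rose with fluoxetine, Atp5a1 (0.10), and 4 with lithium, among them the catalytic subunit Atp5b (0.11), Atp5o (0.10) and Atp5j2 (0.13). With copies summed mt-Atp6 had -0.17 and -0.10, and neither passed.

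In HT against WT vehicle females the nuclear subunits lay on the same side as the members. There 11 of 77 fell and 0 rose, with a median of -0.16, where 6.2% of all genes were called. Named after their values were seen, they were 4 of complex I (Ndufb7, Ndufb8, Ndufb9 and Ndufa8), 2 of complex III (Uqcr10 and Uqcr11), 4 of complex IV (Cox4i1, Cox6a1, Cox6b1 and Cox8a) and 1 of complex V (Atp5d). Cox4i1 averaged 9312 normalised counts in HT vehicle females, against 11336 in WT vehicle females (log2 fold change -0.28; limma, adjusted p = 0.0181). Without both libraries that stand apart 3 fell, fitted on the compared groups alone 0, and over the fits that leave out 1 library the count was 0 (without HT vehicle female replicate 4) to 22 (without WT vehicle male replicate 2). In WT females 0 of 77 were called with fluoxetine by limma, edgeR or DESeq2, with 10 at an unadjusted p under 0.05 by limma and a median of -0.07, and 1 rose and 1 fell with lithium, with a median of -0.10.

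Genes that maintain and express the mitochondrial genome were read from 5 lists, beside 13.5% of all genes called with fluoxetine and 13.1% with lithium in either direction. Of 14 genes of mtDNA transcription and maintenance, 0 were called and 0 had an unadjusted p under 0.05 with fluoxetine by limma, edgeR or DESeq2, and 2 rose with lithium: Polrmt, the mitochondrial RNA polymerase (0.17), and Polg, the mitochondrial DNA polymerase (0.10). Of 16 genes of mitochondrial RNA processing and stability, 2 rose and 2 fell with fluoxetine. Tbrg4 (0.13) and Supv3l1 (0.10) rose, and Fastkd5 (-0.25) and Rexo2 (-0.12) fell. Fastkd5, which acts on mitochondrial precursor RNAs not flanked by tRNAs, averaged 185 normalised counts in fluoxetine mice, against 219 in vehicle mice. With lithium 5 of the 16 rose, led by Tbrg4 (0.17), Hsd17b10 (0.15) and Fastk (0.10). Hsd17b10 is a subunit of mitochondrial RNase P, which cuts tRNA 5′ ends.

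Of 26 mitochondrial translation genes, 3 rose with fluoxetine (Tsfm 0.13, Mrpl37 0.08 and Mrps16 0.11) and 2 with lithium (Mrpl37 0.09 and Gfm1 0.095). Of 10 biogenesis regulators, Nrf1 rose with fluoxetine (0.13) and Pprc1 (-0.25; limma, adjusted p = 3.84e-05) and Gabpa (-0.23) fell, and 0 were called with lithium by limma, with 2 at an unadjusted p under 0.05 (1 called by DESeq2). Nrf1 and Gabpa are transcription factors of nuclear genes for mitochondrial proteins, and Pprc1 is a coactivator related to PGC-1. Of 17 complex IV assembly genes, 3 rose and 1 fell with fluoxetine and 3 rose with lithium. Cox15 and Cox10, which make the haem A of mt-Co1, rose with both drugs (0.14 and 0.16 for Cox15, 0.13 and 0.16 for Cox10), as did Coa7 with fluoxetine (0.13) and Sco2 with lithium (0.26), while Cox20 fell with fluoxetine (-0.19). None of these 5 lists had a call by limma, edgeR or DESeq2 in HT against WT averaged over the strata, with 3 genes in all at an unadjusted p under 0.05 by limma. In vehicle females, where 6.2% of all genes were called, 3 biogenesis regulators were called higher in HT, Ppargc1a (0.38), Esrrg (0.37) and Gabpa (0.35). Called lower in HT were Fastk (-0.23) of RNA processing and Mrps7 (-0.21) and Mrpl12 (-0.24) of translation. These 6 were named after their values were seen.

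Set side by side in each library, the members and the nuclear subunits were compared as means of log2 levels. The mean log2 level of the members minus that of the 77 nuclear subunits ranged from 4.46 in WT fluoxetine female replicate 2 to 5.97 in WT vehicle male replicate 2. With the copies summed it ranged from 5.30 to 6.97. The SD within groups was 0.28 for the members and 0.09 for the nuclear subunits. The Pearson correlation between both means over the 59 libraries, given as a description, was 0.23 for the members alone and 0.12 with the copies. Without both libraries that stand apart it was 0.39 and 0.36 over 57 libraries. WT vehicle male replicate 2 lay at an end of both, with the lowest nuclear mean of all, 10.71, and the highest summed member mean, 17.68. For the members alone, averaged over groups, fluoxetine and vehicle mice differed in the member mean minus the nuclear mean by -0.17 and lithium and vehicle mice by -0.12. Without both libraries that stand apart the differences were -0.14 and -0.09. Summed with the copies, they were -0.17 and -0.08, and -0.12 and -0.04 without both libraries. No test was made of these differences.

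**Figure D5:**
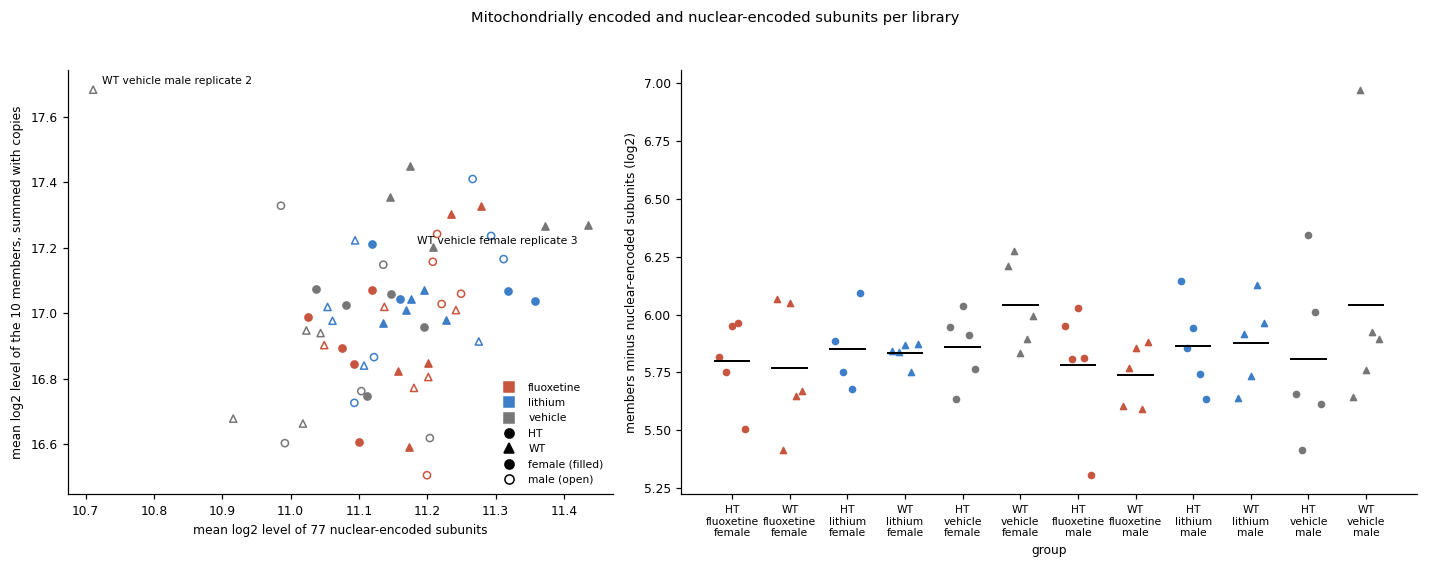
Left, mean log2 level of the 10 members summed with copies (y axis) against that of the 77 nuclear-encoded subunits (x axis) in each of the 59 libraries; right, the difference between both means (log2) by group, with the group mean as a line. The correlation on the left is 0.12, and WT vehicle male replicate 2 sits apart with the lowest nuclear mean, 10.71, and the largest difference, 6.97.

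Genes whose levels followed the members most closely over the 59 libraries, outside the mitochondrial genome and its copies, were Tmem87a (Pearson 0.61), Scg3 (0.60), Pfdn2 (0.58), Lsm12 (0.56) and Pon2 (0.54), of 15033 genes compared with a median of -0.02. With the copies summed they were Scg3 (0.75), Lsm12 (0.69), Zmat2 (0.66), Pfdn2 (0.63) and Bag1 (0.63). Without both libraries that stand apart the correlations of these genes were 0.52 to 0.62 for the members alone and 0.56 to 0.74 with the copies. Scg3 and Pfdn2 encode a secretory granule protein and a prefoldin subunit. The highest gene in the list of nuclear-encoded subunits was Cox7a2l at 0.54 for the members alone and Atp5h at 0.55 with the copies. The points share library preparation and depth, and the correlation of the members with total reads was 0.12. Their correlations with mean marker levels were 0.39 for microglia, 0.30 for endothelium, 0.26 for astrocyte, -0.11 for neuron and -0.14 for oligodendrocyte lists. Those with the striatum and choroid plexus lists were -0.21 and 0.07.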

How the data were processed

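RNA-seq libraries of mouse prefrontal cortex were prepared with a stranded mRNA kit, per the labels' protocols. The deposited signal values are read counts per gene that the authors divided by a size factor per library, as the whole-number steps of the values show (100.0% of values were whole within 0.01 of a read in every library). The submitters' processing notes name Salmon 0.11.2, R 3.6.0, DESeq2 1.19.11 and GRCm38, while no source used here gives the annotation or strand setting. Of 18088 gene identifiers, 18077 matched a symbol in GENCODE M21 on GRCm38, which also gave positions and sequences. Columns were mapped to samples by the labels, and no pair of libraries correlated above 0.98881.

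The values are not counts, so limma 3.58.1 in R 4.3.3, with trend and robust settings, was fitted to log2(value + 1) of all 59 libraries with 1 mean per group. It was fitted to the 17875 genes with a normalised count of at least 10 in at least 5 libraries, and 213 genes were left out. Averages weight the strata equally. P-values were adjusted over all genes tested by the Benjamini-Hochberg method, with a threshold of 0.05, and the code was tested on simulated data. Fold changes are on the log2(value + 1) scale. Alternatives were edgeR 4.0.16 and DESeq2 1.42.0 on the recovered reads, other scalings, a pseudocount of 10, no filter, the compared groups alone, removal of a trend with GC content and length, libraries left out, and the replicate number as a block. Summing each member with its chromosome 1 copy was chosen after seeing the data, which left 17869 genes. Copies were aligned to members with Biopython 1.88. Level per kilobase is the normalised count divided by gene length. Counting error alone is far smaller than the spread between libraries at this depth.

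The members and gene lists were chosen with earlier results of these data known. Named nuclear genes are, for each list and direction, up to 3 with the smallest p among those called in an average, and exceptions are marked. The genes whose levels follow the members were the 5 highest by Pearson correlation outside the mitochondrial genome and its copies, predicted genes left out.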

Additional observations from a re-analysis of the deposited data

Results flagged for a closer look

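Within each group of 4 or 5 libraries, every member was searched for a library whose gap to its nearest neighbour was large beside the range of the group (Dixon's 95% criterion). It marked 21 of the 168 groups examined, 12.5%, where chance alone marks about 1 in 20 independent groups. These groups were not independent. The members rose and fall together between libraries, and mt-Co1, mt-Co2, mt-Co3 and mt-Atp6 were read both alone and with their copy. The share marked therefore cannot be set against chance. No interaction passed the threshold by limma.

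WT vehicle male replicate 2 accounted for 8 of the 21, each far above the rest of its group. It had 313429 normalised counts of mt-Nd1 (next library 159423), 372919 of mt-Nd4 (195585), 247092 of mt-Nd5 (127112), 316546 of mt-Cytb (227444), 1209152 of mt-Co1 (719714) and 129887 of mt-Co2 (57538). Summed with the copies, it had 1250770 of mt-Co1 (759796) and 406994 of mt-Co2 (210367). The same library was the only one with reads on Gm28439, had the lowest mean level of nuclear-encoded subunits and had the highest mean of the neuron markers.

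The library labelled WT vehicle female replicate 3 had 3511 normalised counts of mt-Nd6 (next library of its group 1867), with the lowest mt-Nd5 of all 59 libraries.

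HT fluoxetine male replicate 5 was low for mt-Nd1 at 116096 (next 174386), for mt-Nd4 at 129821 (196119) and for mt-Co1 with its copy at 548839 (769363). HT vehicle female replicate 2 was low for mt-Nd1 at 142217 (167018), for mt-Nd2 at 89600 (113553) and for mt-Co3 with its copy at 207568 (238292). HT lithium female replicate 4 was high for mt-Nd1 at 198577 (169450), for mt-Nd5 at 158768 (133028) and for mt-Co1 with its copy at 883468 (780617). The others were mt-Nd6 in WT lithium male replicate 2 at 2461 (1801), mt-Co1 in WT lithium female replicate 4 at 692168 (749025) and mt-Co2 with its copy in WT lithium male replicate 4 at 267565 (210035). The causes of these gaps were not tested.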

How the results depend on the processing

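The log2 fold changes of the members and of the named nuclear genes kept their direction and their side of the threshold in 1123 checks under other settings, while 64 lost their call, 6 gained one and 27 reversed. Sdhb with fluoxetine lost its call under 7 settings and Sdha with lithium under 6. Other scalings moved the median of all genes by at most 0.034. Counts of members called moved as follows. In fluoxetine against vehicle in WT females, 0 members alone became 1 under DESeq2, with the compared groups alone, with the trend in GC content and length removed and with the copies summed, and the 1 summed call became 0 without both libraries that stand apart. In lithium against vehicle in WT females, 0 became 1 under DESeq2, and 0 became 1 for summed counts with the trend in GC content and length removed. Over the fits that leave out 1 library, members called ranged from 0 to 1 in HT against WT vehicle females summed (1 without WT vehicle male replicate 2), fluoxetine in WT females alone (1 without HT vehicle male replicate 5) and summed (0 without WT fluoxetine female replicate 2, for example), and lithium in WT females summed (1 without WT vehicle male replicate 2). Replicate numbers did not mark pairs: the deviations of same-numbered libraries of different groups correlated at -0.0112 on average (319 pairs), against 0.0028 for different numbers (1276 pairs). With the number as a replicate block, 198 results stayed on their side, 2 lost their call and 1 reversed (mt-Atp6, HT against WT averaged, -0.0037), and no member was called in an average. Without both libraries that stand apart, 20 of 140 tests within strata had an unadjusted p under 0.05.

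The nuclear-encoded subunits were more sensitive. The 11 that rose with fluoxetine became 2 with the trend in GC content and length removed, and 8 (without HT fluoxetine male replicate 4) to 19 (without WT vehicle female replicate 3) when 1 library was left out. The 28 that rose with lithium became 15 scaled to total reads, 14 scaled to reads outside the mitochondrial genome and 17 with the compared groups alone, and 18 (without HT lithium female replicate 3) to 32 when 1 library was left out. The 11 that fell in HT vehicle females became 24 under DESeq2, 7 scaled to total reads, 0 with the compared groups alone, 0 with the trend in GC content and length removed and 3 without both libraries that stand apart, and 0 (without HT vehicle female replicate 4) to 22 (without WT vehicle male replicate 2) when 1 library was left out.

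Reversed averages were as follows, as log2 fold changes with the reported value last. HT against WT had mt-Co2 summed -0.043 (0.16), mt-Atp6 summed -0.040 and without both libraries -0.0068 (0.0091). Fluoxetine had mt-Nd6 at 0.011 with the trend in GC content and length removed and 0.062 without both libraries (-0.044), and mt-Co3 at -0.068 summed and -0.068 without both libraries (0.045). Lithium, with the trend in GC content and length removed, had mt-Nd1 at 0.041, mt-Nd4 0.035, mt-Cytb 0.061, mt-Co1 0.039, mt-Co2 0.028 and mt-Co3 0.027. Lithium without both libraries had mt-Nd1 at 0.027, mt-Cytb 0.034, mt-Co1 0.018 and mt-Co2 0.011, and summed mt-Co2 0.059 and mt-Co3 0.0051. Lithium by edgeR and DESeq2 had mt-Nd5 at -0.018 and -0.017 and mt-Co3 at 0.023 and 0.023. Females against males had mt-Co2 at 0.13 summed and 0.012 without both libraries (-0.037), and mt-Atp6 at 0.044 summed (-0.32). When 1 library was left out, the values that changed sign ranged as follows. HT against WT gave mt-Atp6 -0.053 to 0.115 and mt-Co1 -0.043 to 0.0021. Fluoxetine gave mt-Co3 -0.024 to 0.118, mt-Nd5 -0.085 to 0.0099 and mt-Nd6 -0.093 to 0.0094. Lithium gave mt-Co1 -0.033 to 0.032, mt-Co2 -0.149 to 0.056, mt-Co3 -0.125 to 0.102, mt-Cytb -0.018 to 0.029, mt-Nd1 -0.057 to 0.026, mt-Nd2 -0.00039 to 0.051, mt-Nd4 -0.057 to 0.021 and mt-Nd5 -0.029 to 0.066. Females against males gave mt-Co2 -0.098 to 0.038, mt-Co3 -0.042 to 0.123 and mt-Nd6 -0.013 to 0.058. Apart from the summing, which joins counts of 2 rows, the cause of these changes was not tested.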

Other observations

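Outside the 10 members, mt-Nd4l and mt-Nd3, both of complex I, showed the same division with a copy in the chromosome 1 block. The share of the pair assigned to mt-Nd4l ran from 12.9% in HT fluoxetine male replicate 5 to 100%, with a median of 45.1%, and Gm10222 was at 0 in 13 of the 59 libraries. For mt-Nd3 and Gm28438 the median share on the member was 11.9%. The coefficient of variation was 43.3% for mt-Nd4l alone and 24.0% summed, and 44.3% and 27.1% for mt-Nd3. The share of mt-Co3 assigned to the member was 9.18% to 30.5% in WT vehicle females alone, and that of mt-Co2 reached 42.8%.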
